A study of Mus musculus with 4 samples.

Results

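The genes described here are the chemokines of the Ccl and Cxcl families, the membrane-bound chemokine Cx3cl1, and the chemokine receptors of the Ccr and Cxcr families. They were chosen by symbol alone, and no measured value entered the choice of family. Of the 23337 gene symbols counted, 53 met the rule, after 3 Ccl21 genes with near-identical copies had been left out. Of the 53, 38 had at least 20 counts in at least 1 library and are described below. The other 15 had fewer than 20 counts in every library: Ccl1, Ccl3, Ccl4, Ccl5, Ccl7, Ccl12, Ccl19, Ccl26, Ccl27b, Ccr1l1, Ccr8, Ccr10, Cxcl5, Cxcr1 and Cxcr6.

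Chemokines are small secreted proteins that bind receptors coupled to inhibitory G proteins and guide the movement of cells along gradients. Some are made constantly and place cells within a tissue, as CXCL12 does for blood stem cells, while others are induced by NF-kB or interferon signalling and recruit leukocytes during inflammation. Lymphatic endothelium is known for its own chemokines, which draw dendritic cells into lymph vessels, and for scavenging receptors that bind chemokines without signalling through G proteins.

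RNA was sequenced from mouse lymphatic endothelial cells of embryonic day 14.5, from wild type embryos and from homozygous deletion mutants. The series concerns an enhancer to which GATA2, a transcription factor, binds; the labels do not place the deletion, and in the published study the enhancer belongs to Prox1, the gene of the homeobox factor that specifies lymphatic endothelium. Cells positive for LYVE1 and VECAD and negative for CD45 were sorted from the dorsal anterior region of 1 pooled litter per genotype. One portion was lysed at once, and the other was grown for 7 days on OP9, a mouse stromal line that supports blood cell formation, with FLT3L, IL3 and SCF at 100 ng/ml each. After that culture the cells were sorted again on LYVE1 and VECAD, with no exclusion of CD45 stated. The 4 groups are therefore wild type and mutant cells before culture, and wild type and mutant cells after culture. Each group is 1 library, so no value has a replicate. The comparisons of 2 libraries below carry no significance test, and every interval is a 95% interval for counting error. Duplicates were removed, per the names of the deposited tables, but without molecular identifiers the remaining read pairs are not shown to be separate RNA molecules, and the intervals do not cover differences between animals. Values for the 4 libraries are given in the order wild type before, mutant before, wild type after and mutant after culture, unless a sentence names them.

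Gene counts ranged from 1694669 to 7943587 per library. The sorted markers were present in all 4 libraries: Lyve1 ranged from 890 to 3523 CPM, counts scaled to library size by the trimmed mean of M values (TMM), and Cdh5, which encodes VECAD, from 1003 to 2477 CPM. Prox1 was at 507, 487, 207 and 137 CPM, and the lymphatic marker Pdpn at 87.3, 99.3, 0 and 2.39 CPM. All 8 stromal markers had mutant over wild type folds above 1 before culture, and their sums were 3280, 5236, 1173 and 980 CPM in the 4 libraries. None of the 8 genotype folds before culture was called, meaning that no interval lay entirely past 2-fold. Of the 7 leukocyte markers, summed at 109, 114, 210 and 204 CPM, Lcp1 held most of the counts after culture. Ptprc, which encodes CD45, had 91, 118, 6 and 26 counts, each under the 122, 153, 9.84 and 29.5 counts expected from background.

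Background matters for these genes, because most chemokine genes had few counts. It was measured in 1431 olfactory and vomeronasal receptor genes, which encode sensory receptors that are silent in most tissues. Counts per kb of coding sequence in them were 6.64, 8.34, 0.537 and 1.61, or 1.33, 0.905, 0.391 and 0.482 CPM per kb. The rate for each library, multiplied by a gene's exon length with untranslated parts included, gave the counts expected there from background. Reads in untranslated exons of the sensory receptor genes would raise the rate, so expected counts may be too high, most in genes with long exons. The median rate of single sensory receptor genes was lower, at 4.67, 5.63, 0 and 1.06 counts per kb. A gene was taken as above background where the lower 95% Poisson limit of its count exceeded that number.

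By this measure 23, 28, 11 and 18 of the 38 genes stood above background, which is 60.5%, 73.7%, 28.9% and 47.4%. The same held for 14.5%, 15.9%, 5.87% and 8.39% of the sensory receptor genes, and for 81.6%, 90.6%, 69.1% and 81.0% of all genes. The 38 were kept for having at least 20 counts in a library, which favours a place above background, while the sensory receptor genes passed no such filter. In the wild type library after culture, the shallowest, 7 of the 38 genes had no counts, which allows up to 3 counts, or 2.18 CPM, for each. The other libraries had counts for all 38.

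**Figure D1:**
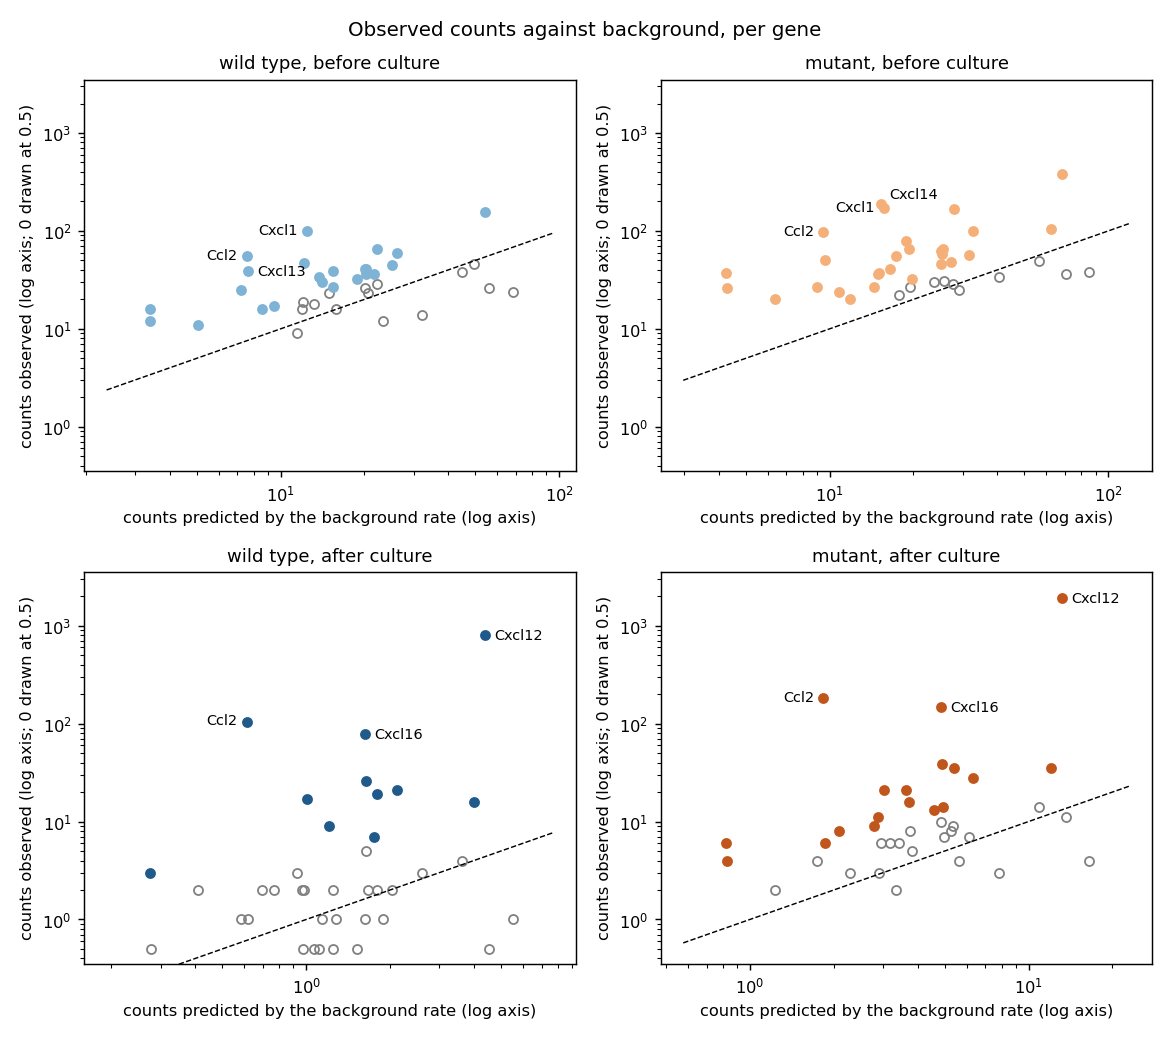
Observed counts of the 38 genes (vertical log axis) against the counts expected from the sensory receptor background (horizontal log axis), 1 panel per library. Filled points lie above background by the Poisson limit, open points do not, and the dashed line marks equality; 23, 28, 11 and 18 points are filled.

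Cxcl12 was the chemokine gene with the most counts after culture. It encodes the ligand of CXCR4 and of the scavenging receptor ACKR3, and is a product of stromal and endothelial cells that holds blood stem cells in their niche. The gene lies at chr6:117168535-117181367 on the plus strand (mm10). Its reads numbered 156, 379, 806 and 1915, where background would give 54.3, 68.2, 4.39 and 13.2. The 250 bases before its start are shown because no match of the NF-kB, interferon or GATA motifs described below lies in them. All promoter windows are from RefSeq on GRCm38.p6, 5′ to 3′ on the strand of the gene, and motif matches would be in capitals. The Cxcl12 window is chr6:117168285-117168534, plus strand.
Cxcl12: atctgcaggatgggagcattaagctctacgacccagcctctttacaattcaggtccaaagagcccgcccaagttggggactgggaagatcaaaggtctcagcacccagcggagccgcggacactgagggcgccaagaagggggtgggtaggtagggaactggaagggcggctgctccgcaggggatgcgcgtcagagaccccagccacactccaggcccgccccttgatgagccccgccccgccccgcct

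The level of Cxcl12 before culture was 31.3 CPM (26.6 to 36.6) in wild type cells and 41.1 CPM (37.1 to 45.5) in mutant cells. After culture it was 586 CPM (547 to 628) and 573 CPM (547 to 599). The cultured libraries lay far above the uncultured ones, with no overlap of intervals. The genotypes lay close together after culture, while before culture their intervals did not overlap either, the mutant being the higher. Cxcl12 rose 18.7-fold (15.8 to 22.4) between the wild type libraries and 13.9-fold (12.5 to 15.6) between the mutant libraries. With background subtracted from both counts the folds were 28.6 (22.5 to 37.3) and 16.9 (14.8 to 19.3), and with scaling by total counts alone they were 12.2 and 10.2. Cxcl12 held 11.8%, 15.5%, 70.2% and 72.7% of all counts of the 38 genes. These shares depend on exon length, which was 8176 bases for Cxcl12 and 1138 for Ccl2. Per kb of exon after culture, Cxcl12 stood at 71.7 and 70.0 CPM and Ccl2 at 67.1 and 48.1 CPM.

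Stromal cells also make Cxcl12, and the feeder line is stromal, so the stromal markers are given beside it. The uncultured cells had not met the feeder, so stromal RNA there is from the embryo, while after culture it may be from either source. How much feeder RNA the cultured libraries hold was not tested. The stromal marker sum was lower after culture in both genotypes. Called lower were 5 of 8 markers in wild type and 6 of 8 in mutant, against 5.77% and 3.62% of all genes tested. The collagen gene Col1a1 was at 943, 1630, 374 and 329 CPM, and Lum was at 0 counts in the wild type library after culture. The markers did not all move alike: Pdgfra had culture folds of 0.794 (0.611 to 1.02) and 0.736 (0.638 to 0.846), and Pdgfrb of 1.14 (0.849 to 1.52) and 1.04 (0.865 to 1.24), none of them called. Of the 8 endothelial markers, 7 were called higher with culture in wild type, against 8.17% of all genes tested, and 6 in mutant, against 5.19%. Their sums went from 3947 and 4201 CPM to 12541 and 11437 CPM. In bulk RNA, more cells of a type and more RNA per cell cannot be told apart, and the part of any cell type in the Cxcl12 level was not tested.

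**Figure D2:**
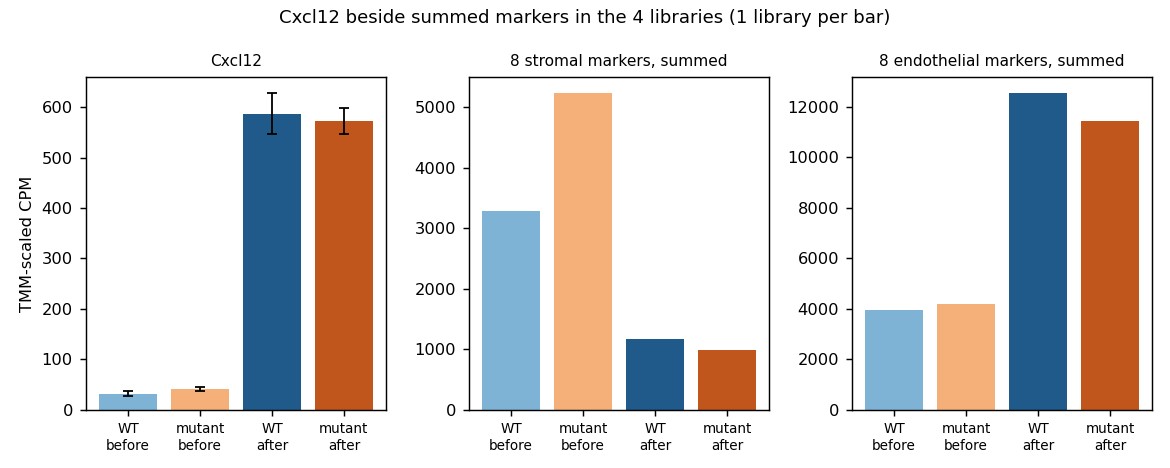
TMM-scaled CPM (vertical axes from 0) of Cxcl12, of 8 summed stromal markers and of 8 summed endothelial markers, 1 bar per library, with 95% Poisson intervals on Cxcl12. Cxcl12 stood at 31.3 and 41.1 CPM before and 586 and 573 CPM after culture, while the stromal sum was lower and the endothelial sum higher after culture.

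Across the set, culture was the comparison in which genes were called. A gene could be measured with 20 or more counts in either library, and it was called where its fold interval was entirely past 2-fold. Between the wild type libraries 26 of the 38 could be measured: 3 were called higher, against 8.17% of all 17154 genes tested, and 2 lower, against 5.77%. Between the mutant libraries all 38 could be measured: 3 were called higher, against 5.19% of 18807 genes, and 2 lower, against 3.62%. The shares called were thus close to those over all genes. The genes called higher were Cxcl12, Ccl2 and Cxcl16 in both genotypes, and Cxcl2 was called lower in both. Intervals wholly above 1 were found for 4 genes in each genotype, those 3 and Ccl9, against 33.9% of all genes in wild type and 32.4% in mutant. Intervals wholly below 1 were found for 13 genes in wild type, against 27.3%, and for 12 in mutant, against 27%.

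The median log2 fold with culture was -1.58 over the measured genes in wild type and -0.75 in mutant, against -0.05 and -0.09 over all genes. The sensory receptor genes had medians of -1.72 and -0.85, near those of the chemokine set. The minimum count favours a median below 0: of the 26 genes measured in wild type, 5 had 20 or more counts after culture and 21 passed through the uncultured library alone, and of the 38 in mutant, 9 and 29. The background rate in CPM per kb was also lower after culture, so a gene at background would have a fold below 1. Single folds below 1 are therefore to be read against background, and background counts are given for the genes of the set called lower and for some others.

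**Figure D3:**
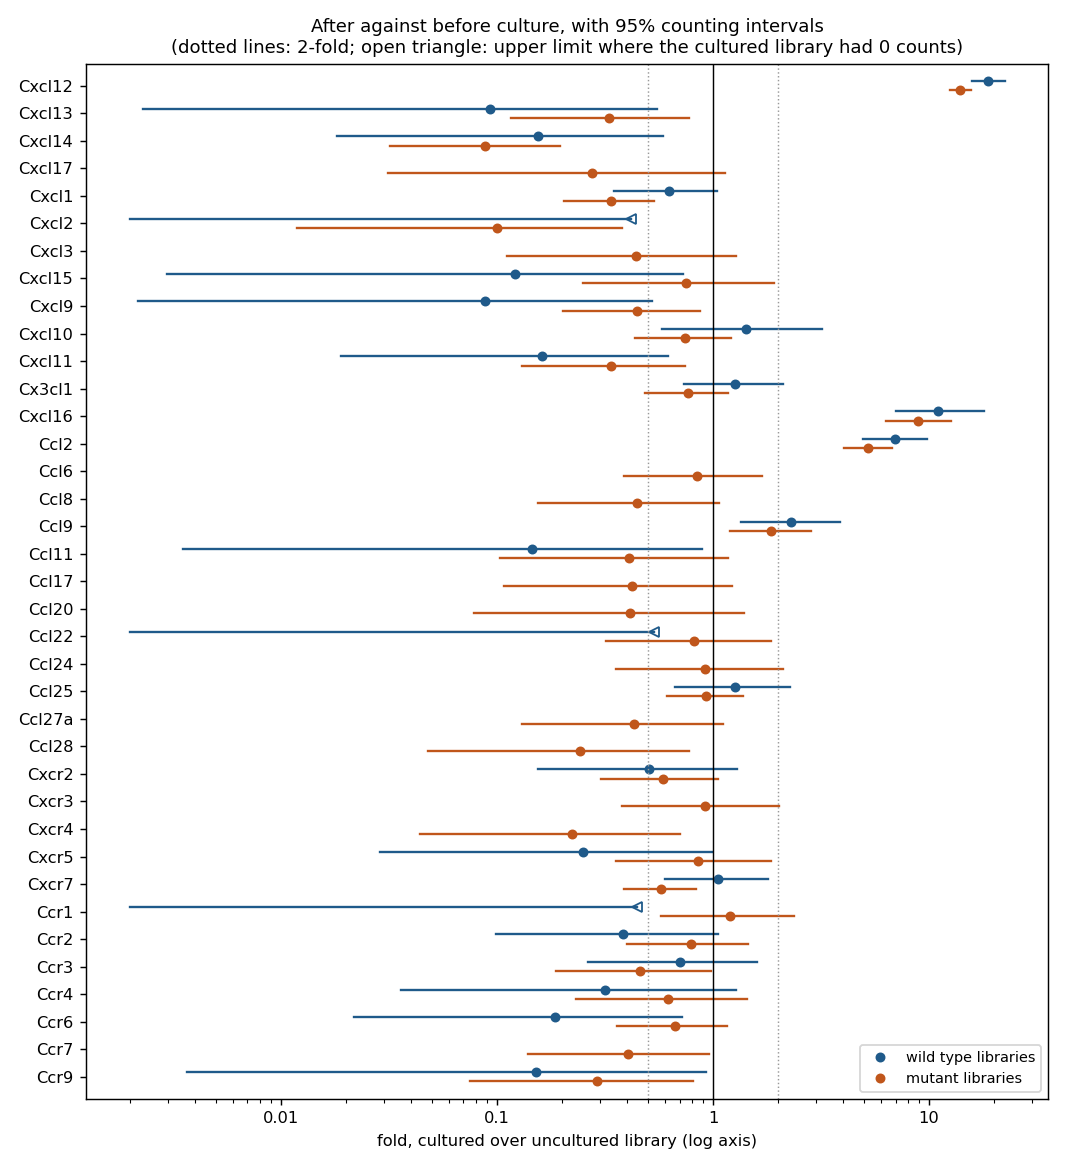
Fold of the genes described, cultured over uncultured library (horizontal log axis), for wild type (blue) and mutant (orange), with 95% counting intervals; open triangles are upper limits where the cultured library had 0 counts, and their lines run on to a limit of 0. Only Cxcl12, Cxcl16 and Ccl2 lie wholly above the dotted 2-fold line, in both genotypes; wild type points are missing for 12 genes with fewer than 20 counts in both libraries.

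Ccl2 was the next gene per kb after culture. It encodes the monocyte attractant that signals through CCR2, and it lies at chr11:82035571-82037453 on the plus strand. Its counts were 55, 97, 105 and 183, with 7.55, 9.49, 0.611 and 1.83 expected from background. The levels were 11.04, 10.5, 76.4 and 54.7 CPM, with both cultured libraries above both uncultured ones. Ccl2 rose 6.92-fold (4.95 to 9.77) in wild type and 5.20-fold (4.04 to 6.72) in mutant. Per kb of exon, Ccl2 stood at 67.1 and 48.1 CPM after culture and Cxcl12 at 71.7 and 70.0 CPM, all well above the rest of the set.

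Cxcl16, a transmembrane chemokine that also acts as a scavenger receptor for oxidised lipoprotein, was the third. It lies at chr11:70453983-70459984 on the minus strand. Its counts of 26, 46, 79 and 148 gave 5.22, 4.99, 57.5 and 44.3 CPM, and both uncultured libraries lay well below both cultured ones. Cxcl16 rose 11.01-fold (6.99 to 17.9) in wild type and 8.86-fold (6.33 to 12.6) in mutant. Background alone would give 20.1 and 25.2 counts before culture, and with it subtracted the folds were 47.2 (15.7 with no upper limit) and 19.0 (10.8 to 45.5). The exons overlap those of Zmynd15 on the opposite strand. Zmynd15 had 9.23, 10.9, 27.7 and 38.9 CPM, and since the strand setting of the counting is not given, the reads of the pair may not be fully separated. Of the other transmembrane ligand, Cx3cl1 or fractalkine, the counts were 60, 101, 21 and 28. Its levels of 12.04, 10.96, 15.3 and 8.37 CPM gave culture folds of 1.27 (0.733 to 2.12) and 0.764 (0.484 to 1.17), and neither was called.

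Cxcl1 and Cxcl2 are neutrophil attractants of the ELR class, which bind CXCR2 and are known targets of NF-kB. Their promoter windows are shown because both hold the NF-kB motif, GGGA and CC with any 4 bases between them, searched on both strands. Matches are in capitals, and where matches overlap the capitals run on. The Cxcl1 window is chr5:90890995-90891244 and the Cxcl2 window chr5:90903649-90903898, both on the plus strand.
Cxcl1: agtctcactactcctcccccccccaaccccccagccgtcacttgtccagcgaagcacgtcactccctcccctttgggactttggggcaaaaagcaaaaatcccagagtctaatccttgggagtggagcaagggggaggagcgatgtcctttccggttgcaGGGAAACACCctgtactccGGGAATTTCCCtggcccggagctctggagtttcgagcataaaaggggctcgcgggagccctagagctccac
Cxcl2: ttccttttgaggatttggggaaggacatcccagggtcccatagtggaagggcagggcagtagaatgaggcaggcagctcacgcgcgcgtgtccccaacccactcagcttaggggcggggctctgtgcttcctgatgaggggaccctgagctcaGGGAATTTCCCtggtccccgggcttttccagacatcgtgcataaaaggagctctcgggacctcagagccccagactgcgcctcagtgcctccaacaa

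Cxcl1 had the highest level per kb in the wild type library before culture, at 10.6 CPM per kb, and was at 9.90 in the mutant library. Its counts of 99, 171, 17 and 21 gave 19.9, 18.6, 12.4 and 6.28 CPM, with the cultured libraries below the uncultured ones. The culture fold was 0.623 (0.349 to 1.05) in wild type and 0.338 (0.204 to 0.534) in mutant, neither called. Cxcl2 had 34, 55, 0 and 2 counts, where background would give 13.7, 17.2, 1.11 and 3.33. Cxcl2 was called lower with culture in wild type, with an upper limit of 0.415 on the fold, and in mutant, with a fold of 0.100 (0.0118 to 0.380). Both cultured counts lie below the background expectation. Of the rest of the class, Cxcl3 had 12, 25, 1 and 4 counts, under the background expectation in every library, Cxcl5 had 13, 15, 1 and 16 counts, and Cxcl15 had 30, 22, 1 and 6.

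Cxcl9, Cxcl10 and Cxcl11 bind CXCR3 and are induced by interferon. The Cxcl10 window, chr5:92348890-92349139 on the minus strand, is shown because it alone among the matched genes held all 3 motifs searched. These are the NF-kB motif, the interferon-stimulated motif (GAAA, any 2 bases, GAAA) and the GATA motif AGATAA, with matches on either strand in capitals.
Cxcl10: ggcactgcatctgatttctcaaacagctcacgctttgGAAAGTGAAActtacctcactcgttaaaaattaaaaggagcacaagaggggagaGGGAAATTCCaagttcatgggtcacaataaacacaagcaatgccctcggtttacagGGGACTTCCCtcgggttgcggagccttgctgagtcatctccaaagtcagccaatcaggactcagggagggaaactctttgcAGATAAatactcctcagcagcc

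Cxcl10 had 23, 78, 9 and 21 counts, or 4.62, 8.47, 6.55 and 6.28 CPM, with the highest level in the mutant library before culture. Its culture folds were 1.42 (0.578 to 3.18) and 0.742 (0.435 to 1.21), on either side of 1 and not called. Its exons overlap Art3 on the opposite strand, which had 6.62, 3.15, 1.46 and 5.38 CPM. Cxcl9 had 41, 62, 1 and 10 counts and Cxcl11 had 45, 57, 2 and 7, so both were lowest after culture. Their culture folds were 0.0884 (0.00219 to 0.521) and 0.161 (0.0189 to 0.617) in wild type, and 0.444 (0.203 to 0.873) and 0.338 (0.130 to 0.743) in mutant. None of these was called, and neither gene was above background after culture.

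A promoter window was found for 29 of the 38 genes, and none for Ccl2 or Cxcl16. The NF-kB motif was present in 13 of the 29, against 17.6% of 32851 windows of the same length. The interferon-stimulated motif was present in 2 (Cxcl10 and Cxcl14), against 2.98% of windows. The GATA motif was present in 6, against 9.99%. These are matches of letters and not measured binding.

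Cxcl14, a chemokine of epithelium and mesenchyme, had the highest mutant over wild type fold of the set before culture. Its window, chr13:56296552-56296801 on the minus strand, holds 1 match of the interferon-stimulated motif, in capitals.
Cxcl14: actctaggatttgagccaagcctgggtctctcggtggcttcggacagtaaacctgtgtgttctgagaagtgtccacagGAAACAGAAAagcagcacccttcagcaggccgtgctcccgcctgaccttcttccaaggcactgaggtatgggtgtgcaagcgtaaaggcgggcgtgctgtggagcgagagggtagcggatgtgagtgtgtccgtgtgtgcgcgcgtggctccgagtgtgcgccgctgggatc

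Cxcl14 counts were 47, 188, 2 and 6, and its levels were 9.43, 20.4, 1.46 and 1.79 CPM. The mutant library before culture was the highest and the cultured libraries were near the background counts of 0.982 and 2.94. The mutant over wild type fold before culture was 2.16 (1.56 to 3.05), which was not called at 2-fold. With culture, Cxcl14 fell in the mutant, with a fold of 0.0879 (0.0319 to 0.195). The wild type fold was 0.154 (0.0182 to 0.589), not called. The stromal marker sum was ordered like Cxcl14 before culture, with Col1a1 at a genotype fold of 1.73 and Col3a1 at 1.51. The part of stromal RNA in the Cxcl14 difference was not tested.

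Other homeostatic CXC ligands had few counts. Cxcl13, the B cell attractant, had 39, 50, 1 and 6 counts and Cxcl17, a mucosal chemokine, had 11, 20, 2 and 2. Both were above background in both uncultured libraries. The culture folds of Cxcl13 were 0.0930 (0.00230 to 0.549) and 0.331 (0.116 to 0.772), and neither was called. Background would give Cxcl13 0.618 and 1.85 counts after culture, in wild type and mutant.

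Among the CC ligands other than Ccl2, Ccl9, a myeloid attractant, was the one with culture intervals above 1 in both genotypes. Its counts were 41, 58, 26 and 39 and its levels 8.23, 6.30, 18.9 and 11.7 CPM, both cultured libraries being the higher. The culture folds were 2.30 (1.35 to 3.85) and 1.85 (1.20 to 2.83), which were not called. With scaling by total counts they were 1.49 (0.876 to 2.50) and 1.36 (0.881 to 2.07), and both intervals then held 1. Ccl7, which neighbours Ccl2 in function as a CCR2 ligand, had 9, 12, 9 and 16 counts, or 1.81, 1.302, 6.55 and 4.79 CPM. It fell short of 20 counts in every library and so was not tested. Ccl8 had 16, 37, 3 and 6 counts, above background in all 4 libraries, and per kb it stood at 6.28, 7.86, 4.27 and 3.51 CPM.

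The eosinophil attractant Ccl11 had 25, 27, 1 and 4 counts, and Ccl17, a ligand of CCR4, had 12, 26, 0 and 4. Before culture both were above background in both libraries. Ccl4, Ccl19 and Ccl26 were each under 20 counts everywhere, with at most 15, 12 and 15. Ccl25, the thymic and gut ligand of CCR9, had 46, 104, 16 and 35 counts, of which background would give 49.4, 62.1, 4 and 11.99. Its exons overlap Elavl1 on the opposite strand, so its reads may include that gene. The remaining CC ligands, Ccl6, Ccl20, Ccl22, Ccl24, Ccl27a and Ccl28, had 14 to 36 counts in each uncultured library and 0 to 11 in each cultured one.

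**Figure D4:**
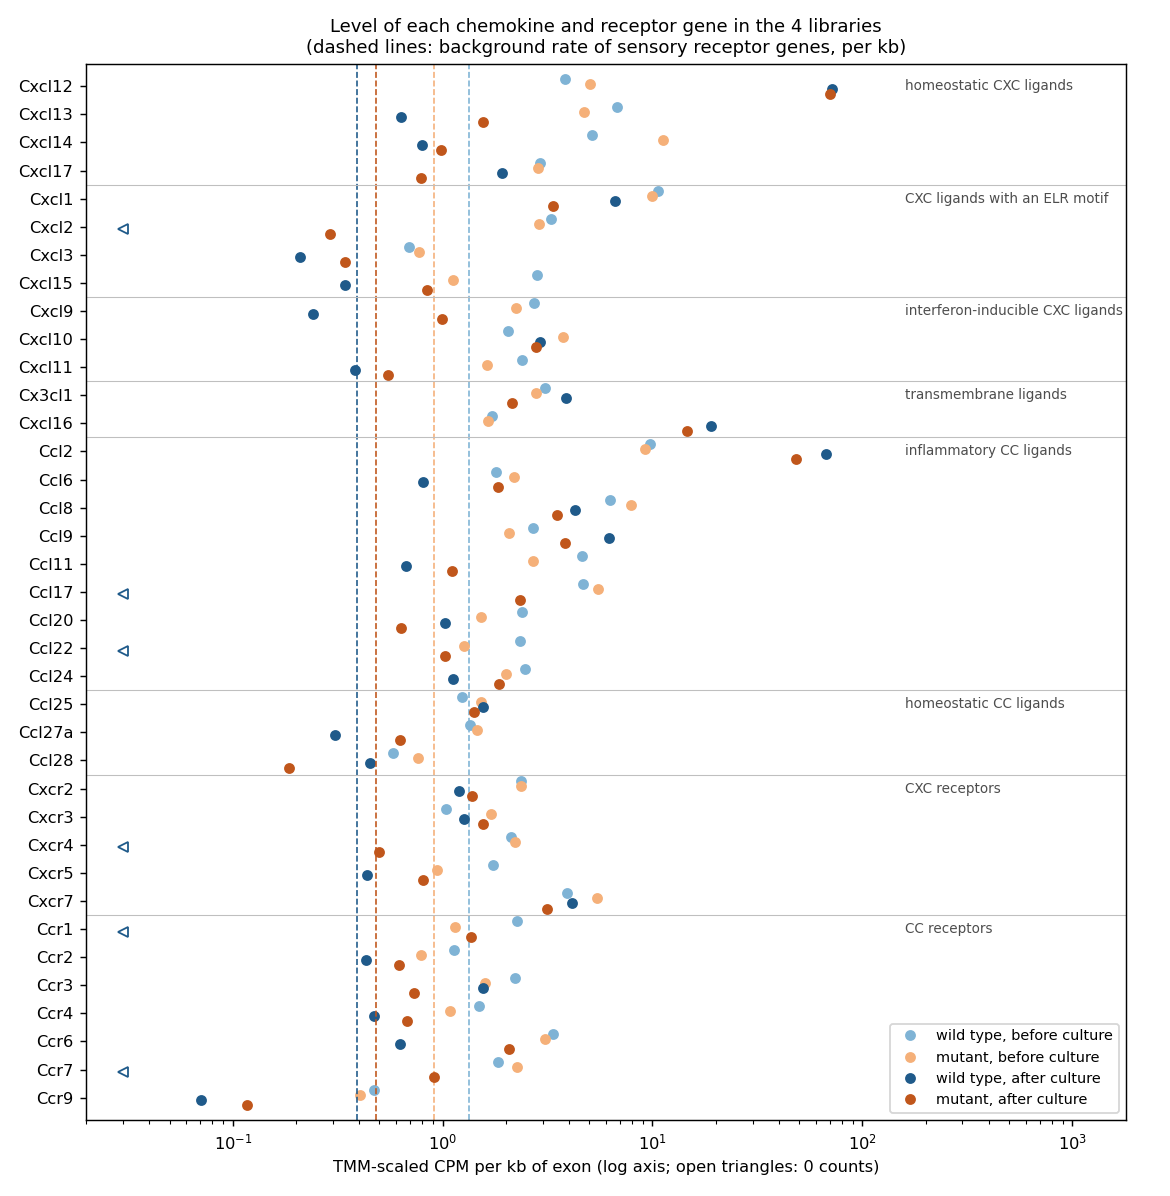
Level of the genes described in CPM per kb of exon (horizontal log axis) in the 4 libraries, grouped by role, with the background rate of each library as a dashed line and open triangles for 0 counts. Cxcl12 and Ccl2 after culture stand apart at 48.1 to 71.7 CPM per kb, and most receptors lie near the dashed lines.

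Receptors were low throughout. Cxcr7, whose current symbol is Ackr3, encodes the scavenging receptor that binds CXCL12, and it was the receptor with the most counts. Its counts were 65, 168, 19 and 35, above background in all 4 libraries, and its levels were 13.0, 18.2, 13.8 and 10.5 CPM. The highest value was in the mutant library before culture and the other 3 lay close together. Its culture fold was 1.06 (0.6 to 1.79) in wild type and 0.574 (0.387 to 0.830) in mutant, not called. Cxcr4, the signalling receptor for CXCL12, had 19, 37, 0 and 3 counts, against 12, 15.1, 0.971 and 2.91 from background. It was above background in the mutant library before culture alone, and after culture it was not detectable above background at this depth.

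Of the 8 CC receptors, Ccr1, a receptor of monocytes and other leukocytes, was the one called. Its counts were 32, 30, 0 and 13, with 18.8, 23.6, 1.52 and 4.56 expected from background. Ccr1 was called lower with culture in wild type, with an upper limit of 0.443 on the fold, and its mutant fold was 1.19 (0.572 to 2.36). With background subtracted under the same scaling, the wild type upper limit moved from 0.443 to 0.657 and the call was lost. With background subtracted and rescaled, that limit was 0.468 and the call held. Ccr6, which binds CCL20, had 39, 66, 2 and 16 counts and was above background in 3 libraries, the exception being wild type after culture. Ccr9 lay below the background expectation in every library, at 24, 38, 1 and 4 counts. Ccr7, the dendritic cell receptor for lymphatic chemokines, had 18, 41, 0 and 6 counts. Cxcr2, Cxcr3, Cxcr5, Ccr2, Ccr3 and Ccr4 had 9 to 66 counts in each uncultured library and 2 to 14 in each cultured one. Ccr9 and Cxcr5 share exon positions with a gene on the opposite strand, as does the ligand Ccl27a.

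Between genotypes no gene of the set was called. Before culture all 38 were measured and 0 were called higher or lower, against 0.0158% of 18934 genes called higher and 0.0475% lower. After culture 9 were measured and 0 were called, against 0.244% of 12309 genes called higher and 0.0731% lower. Shares as small as these amount to less than 1 gene of the set.

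Before culture the folds ran from 0.397 to 2.16, with a median log2 fold of -0.11 against 0.04 over all genes and -0.35 over the sensory receptor genes. The interval lay wholly above 1 for 4 genes, Cxcl10, Cxcl12, Cxcl14 and Cxcr7, where 17.6% of all genes did. It lay wholly below 1 for another 4, Ccl22, Ccr1, Cxcl15 and Cxcr5, where 8.54% did. The Cxcl12 fold was 1.31 (1.09 to 1.59), and 1.65 (1.28 to 2.20) with background subtracted. The Cxcr7 fold was 1.398 (1.04 to 1.89), and with scaling by total counts its interval held 1, from 0.969 to 1.76. The Cxcl10 fold was 1.83 (1.14 to 3.06). The lowest was Cxcl15, at 0.397 (0.218 to 0.711), from 30 and 22 counts. With background subtracted under the same scaling Cxcl15 was at 0.145, with an upper limit of 0.693, while the upper limits of Ccl22 and Ccr1 passed 1, at 1.97 and 1.45, and Cxcr5 had none.

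After culture all 9 folds lay between 0.508 and 0.977, with a median log2 fold of -0.39 against 0.00 over all genes. Scaling by total counts put Cxcl12 at 1.02 and Cxcl10 at 1.01. Ccl2 was the gene whose interval lay below 1, at 0.716 (0.561 to 0.920), where 12.3% of all genes had such an interval, and none lay above 1, where 9.48% did. With background subtracted under the same scaling, intervals below 1 were also found for Cx3cl1, at 0.4715 (0.2353 to 0.9327), and Cxcl1, at 0.4621 (0.2235 to 0.9495). Cxcl12 was at 0.977 (0.899 to 1.06), the narrowest interval of the set. The genotype fold of Cxcl12 after culture was 0.743 times (0.606 to 0.911) that before culture, and of the 9 genes this was the ratio whose interval left out 1. With scaling by total counts the ratio was 0.840 (0.685 to 1.03), and its interval held 1. With background subtracted it was 0.590 (0.445 to 0.783), and the interval of Cxcr7 also left out 1, at 0.399 (0.188 to 0.850). These 9 ratios rest on the same 4 libraries and carry counting error alone.

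**Figure D5:**
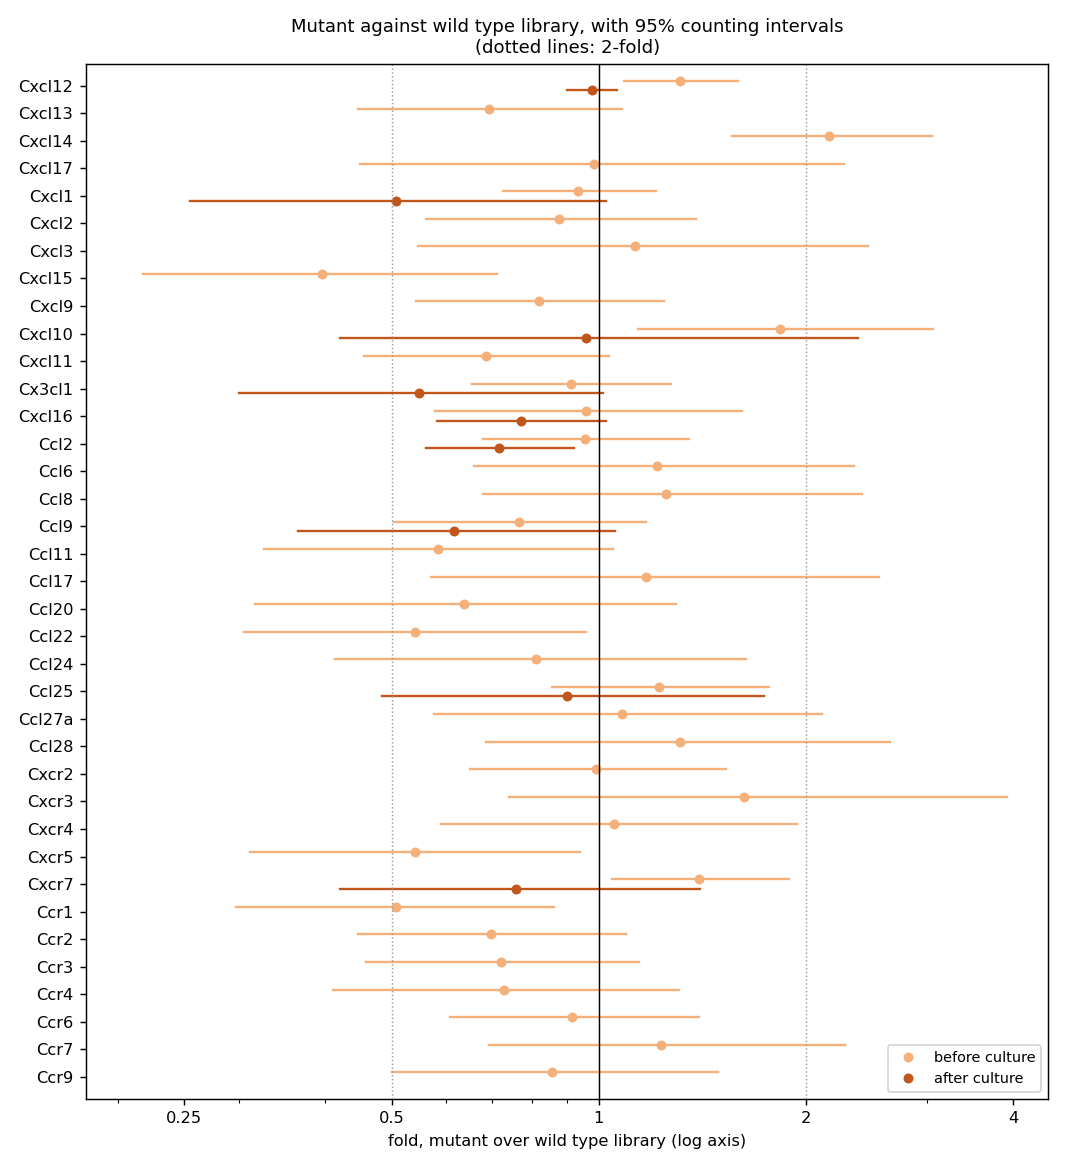
Fold of the genes described, mutant over wild type library (horizontal log axis), before culture (light) and after culture (dark), with 95% counting intervals. No interval lies wholly beyond the dotted 2-fold lines; Cxcl14 before culture is the highest at 2.16, and after culture 9 genes could be measured.

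Genes that act with the chemokines were taken from lists by function. Their counts are to be read against all genes tested, of which 8.17% were called higher and 5.77% lower with culture in wild type, and 5.19% and 3.62% in mutant. A list of 12 genes of the chemokine system also held Cxcr7 of the set above, under its current symbol Ackr3, which was not called. Of the 12, 8 were measured in wild type, with 3 called higher and 0 lower with culture. In mutant 11 were measured, with 3 higher and 1 lower. The 3 that rose are non-signalling chemokine binders of endothelium. Gpr182 had 18.3, 16.2, 415 and 415 CPM and rose 22.7-fold (18.2 to 28.7) and 25.6-fold (21.6 to 30.6). Ackr2 rose 7.84-fold and 5.69-fold, and Ackr1 6.04-fold and 4.20-fold. Cmklr1, the chemerin receptor, fell in the mutant, with a fold of 0.0735 (0.00874 to 0.275).

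Of 13 interferon pathway genes, 6 were called higher and 0 lower with culture in each genotype, and the median log2 folds were 1.33 and 1.13. Jak1, which encodes a kinase of the interferon receptors, rose 8.63-fold (8.11 to 9.18) and 7.10-fold (6.80 to 7.42). The interferon-inducible chemokines were not called higher beside them. Of 15 NF-kB pathway genes, 3 were called higher and 1 lower in wild type and 2 higher and 1 lower in mutant. The NF-kB inhibitor Tnfaip3, itself a target of the pathway, fell, with folds of 0.344 (0.230 to 0.497) and 0.2698 (0.210 to 0.342), while the subunit gene Rela rose 3.03-fold and 2.73-fold. A list of 13 receptors that induce chemokines held cytokine receptors and the Toll-like receptors Tlr2, Tlr3 and Tlr4. Of the 13, 7 were called higher and 1 lower in wild type and 8 higher and 0 lower in mutant, with Tnfrsf1a at 12.9-fold and 9.96-fold. No gene of these 4 lists was called between genotypes, before or after culture.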

How the data were processed

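RNA-seq of 4 mouse libraries was analysed, 1 per genotype and culture state. The deposited values are raw counts of read pairs per gene symbol, unnormalized. The submitters' processing notes name bcl2fastq, STAR and HTSeq 0.11.2 and the build mm10, and per the names of the deposited tables duplicates were removed with sambamba. The annotation is not given in the sources used here, nor is the strand setting. Pairs in no annotated gene, 20.0% to 66.5% of all, and the other HTSeq summary classes were left out of totals.

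Counts were scaled by TMM (edgeR 4.0.16, R 4.3.3), and DESeq2 1.42.0 gave the size factors of an alternative. Levels are CPM after that scaling, with Poisson 95% intervals (exact). Folds carry Clopper-Pearson intervals of the share of counts in 1 library (SciPy 1.17.1). No p-value was computed for a pair of libraries; an edgeR quasi-likelihood fit to all 4 libraries, with terms for culture and genotype, was added as an alternative, with Benjamini-Hochberg adjustment. List medians used a prior count of 2. Background-subtracted folds carry profile-likelihood intervals. Exon lengths came from GENCODE vM21, for 98.0% of symbols. Promoters came from RefSeq. The intervals and the fit were tested on simulated data.

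The 38 genes and the lists were chosen with earlier results of these data known. Those named are each gene called and the 12 highest per kb in any library; of each list, up to 4 called genes. Others singled out were chosen after their values were seen. Values of 1 gene of the set, left out of the plots that name genes, and of 1 list gene are not reported here, although counts over the set and the list include them.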

Additional observations from a re-analysis of the deposited data

How the results depend on the processing

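The Cxcl12, Ccl2 and Cxcl16 culture calls held in both genotypes under every alternative tried: DESeq2 size factors, total counts, upper quartile, background subtraction with and without rescaling, minimums of 50 or 0 counts, and a 1.5-fold limit. Scaling by total counts moved all wild type culture folds by -0.62 and mutant ones by -0.45 on the log2 scale, and upper-quartile scaling by -0.45 and -0.33. With total counts, 3.01% of all genes were called higher and 17.4% lower with culture in wild type, and 2.62% and 9.84% in mutant, against 8.17% and 5.77%, and 5.19% and 3.62%. The 2 genes called lower with culture in wild type became 10 with total counts, 8 with the upper quartile, 5 with background subtracted and rescaled, 8 at 1.5-fold and 0 with a minimum of 50 counts, which left 6 genes. The 3 called higher became 5 with background subtracted under the same scaling. For these alternatives other than total counts the share over all genes is not given here, so their counts are not read as a result about the set. Before culture, 1 gene, Cxcl14, was called higher in the mutant at 1.5-fold, and 0 under the other settings; after culture the genotype comparison had 0 calls under all of them. The litter pool of each genotype was divided before and after culture, so an edgeR quasi-likelihood fit over the 4 libraries with genotype as a block was added after seeing the data. It assumes an equal culture effect in both genotypes and leaves 1 residual degree of freedom. The spread was set from all genes together and not gene by gene. Each genotype was 1 litter pool, so the p-values of the fit do not measure differences between animals or between cultures. At adjusted p under 0.05 it called 4 of the 38 genes higher with culture, against 23.4% of 18949, and 7 lower, against 17.4%. Cxcl12 (log2 fold 3.96), Ccl2, Cxcl16 and Cxcl2 were among them, and Ccr1 was not (adjusted p = 0.306). For genotype it called 0 higher and 0 lower, with 1, Cxcl14, at an unadjusted p under 0.05. Background subtraction under the same scaling moved 21 of 88 single folds beyond their interval, total counts 4 of 107 and DESeq2 size factors 0 of 107. These totals leave out folds of 0 under TMM scaling, among them the wild type calls of Cxcl2 and Ccr1. The 88 also leave out folds that subtraction put at 0 or without a finite value, such as the mutant call of Cxcl2. Among the folds kept, no called fold reversed. Depth limits the fall of a gene that can be seen: the wild type library after culture, at 1694669 gene counts, left 12 of the 38 genes unmeasured.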

Other observations

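Other genes that present chemokines or carry their signal were counted by list, and none of these lists had a call between genotypes. Of all genes tested, 8.17% were called higher and 5.77% lower with culture in wild type, and 5.19% and 3.62% in mutant. Of 9 adhesion molecules that hold leukocytes on endothelium, 3 were called higher and 0 lower in wild type and 4 higher and 0 lower in mutant. P-selectin (Selp) rose 7.73-fold (5.76 to 10.5) and 6.86-fold (5.52 to 8.59), and Icam2 4.31-fold and 3.09-fold. Of 16 genes that anchor or process chemokines, 5 were called higher and 0 lower in wild type and 1 higher and 1 lower in mutant. Dpp4, a peptidase that trims chemokines, had 35.1, 26.5, 194 and 175 CPM (wild type before, mutant before, wild type after, mutant after), and rose 5.53-fold (4.55 to 6.73) and 6.61-fold (5.68 to 7.70).

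Of 23 genes of inhibitory G protein signalling, 6 were called higher in wild type and 3 in mutant, with 0 lower. Of 10 RGS genes, whose proteins shut off G protein signals, 2 were called higher and 0 lower in wild type and 2 higher and 1 lower in mutant. Rgs4 had 7.63, 7.92, 287 and 292 CPM and rose 37.7-fold (27.0 to 54.1) and 36.9-fold (29.1 to 47.4). Rgs16 fell in the mutant, with a fold of 0.302 (0.239 to 0.377), and was at 0.464 (0.343 to 0.617) in wild type, not called. Of 8 macrophage markers, summed at 328, 326, 255 and 333 CPM, of which Mrc1 alone gave 275, 281, 234 and 307 CPM, 1 was called lower with culture in wild type (Csf1r, 0.210) and 0 in mutant. The 5 megakaryocyte markers summed to 25.1, 22.3, 186 and 184 CPM, of which Itga2b alone gave 14.7, 14.3, 176 and 175 CPM. Itga2b rose 12.02-fold and 12.2-fold, and no other of these markers was called with culture. Pf4 had no counts in the wild type library after culture.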
